A study of Homo sapiens with 36 samples.

Results

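The interleukin-12 (IL-12) family genes EBI3, IL23A, IL12B and IL12A were followed across 12 groups of THP-1 cells, a human monocytic leukaemia cell line, on Illumina HumanHT-12 v4 bead arrays. A gene was taken where a probe that the platform annotation assigns to its symbol had a detection p under 0.05 on at least 3 of the 36 arrays, and 4 of the 13582 genes tested were these members. The groups at each of 4 h and 24 h were SB+LPS, LPS, SB+gp120, gp120, SB and control, with 3 biological replicates each. LPS was bacterial lipopolysaccharide at 1 µg/ml, gp120 was the HIV-1 envelope protein of strain SF162 at 1 nM, and SB was SB203580, an inhibitor of the kinase p38 MAPK, given at 10 µM and 15 min ahead of the stimulus. DMSO and bovine serum albumin were the vehicles for SB and gp120 in the study's design. The comparisons asked how each stimulus changed transcription in monocytic cells and how far p38 was needed. All groups came from 1 cell line, without other cells such as the T cells that these cytokines act on.

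IL-12 family cytokines are pairs of one alpha chain, related to IL-6, and one beta chain, related to soluble cytokine receptors. IL12B is the beta chain of IL-12, where it joins IL12A, and of IL-23, where it joins IL23A. EBI3 is the beta chain of IL-27, where it joins the IL27 alpha chain, and it is also assigned to IL-35 with IL12A. Monocytes, macrophages and dendritic cells make IL-12, IL-23 and IL-27 after sensing microbes, and these cytokines steer T-cell responses through JAK kinases and STAT transcription factors.

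The promoters of the 3 members that were called higher with LPS at 4 h are printed here. They run 250 bases before to 50 bases after the RefSeq gene start, in GRCh38.p14, 5′ to 3′ on the strand of the gene, with motif matches in capitals. EBI3 lies at chr19:4229273-4229572 on the plus strand, IL23A at chr12:56338634-56338933 on the plus strand and IL12B at chr5:159330438-159330737 on the minus strand.
EBI3: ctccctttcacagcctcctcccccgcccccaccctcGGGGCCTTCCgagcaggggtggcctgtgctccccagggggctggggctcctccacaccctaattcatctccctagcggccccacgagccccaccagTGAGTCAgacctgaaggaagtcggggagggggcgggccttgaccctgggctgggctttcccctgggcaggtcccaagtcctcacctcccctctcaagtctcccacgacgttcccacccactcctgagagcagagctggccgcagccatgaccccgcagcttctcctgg
IL23A: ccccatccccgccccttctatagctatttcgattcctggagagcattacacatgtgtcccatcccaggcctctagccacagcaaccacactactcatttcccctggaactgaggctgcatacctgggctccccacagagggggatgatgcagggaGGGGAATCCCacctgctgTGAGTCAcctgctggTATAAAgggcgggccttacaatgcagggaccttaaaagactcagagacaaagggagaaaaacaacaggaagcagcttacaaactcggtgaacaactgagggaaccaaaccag
IL12B: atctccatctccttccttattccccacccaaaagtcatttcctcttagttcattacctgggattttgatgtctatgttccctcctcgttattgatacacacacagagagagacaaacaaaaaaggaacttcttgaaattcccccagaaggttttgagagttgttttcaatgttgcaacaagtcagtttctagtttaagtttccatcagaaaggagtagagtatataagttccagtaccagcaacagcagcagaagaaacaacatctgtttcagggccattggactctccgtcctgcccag

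The 5 motifs searched, on both strands, were the NF-kB consensus, AP-1 (TGANTCA), C/EBP (TTGCNNAA), the interferon-stimulated response element and TATAAA, and no matches of different motifs overlapped. The EBI3 window held an NF-kB match that starts 214 bases before the gene start and an AP-1 match at 118 bases. The IL23A window held an NF-kB match at 95 bases, an AP-1 match at 77 bases and TATAAA at 62 bases. None of the 5 motifs had an exact match in the IL12B window, while the IL12A window (chr3:159988585-159988884, plus strand) held an NF-kB match at 44 bases and an interferon-stimulated response element after the start. Near matches were not searched, so a window without a match may still hold a variant of these motifs. Of all 35116 promoters of this length, 11.3% held an NF-kB match, 7.71% AP-1, 10.5% C/EBP, 3.57% the interferon-stimulated response element and 11.5% TATAAA. GC content was 68.3% in the EBI3 window, 53.7% in IL23A, 41.7% in IL12B and 64% in IL12A.

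The mean signal per array ran between 403 and 1572 intensity units, and between 34.8% and 44.4% of probes were detected. The 2 dimmest arrays were the first replicates of the SB+LPS and LPS groups of 4 h, with means of 403 and 457. There were 12 arrays to a slide. The groups of 24 h were on slide 1, except SB+LPS and SB+gp120, which shared slide 2 with gp120 and control of 4 h, and the other groups of 4 h were on slide 3. LPS and control at 4 h were therefore on different slides, while LPS and SB at 4 h shared one. Of 8 monocytic markers with a probe, 7 were detected on all 36 arrays, whereas the T-cell markers CD3E and CD3G, the dendritic marker CD1C and the epithelial markers KRT19 and CDH1 were detected on 0. Others of these lists were detected on some arrays: CD3D on 8 and CD2 on 20, CLEC9A and XCR1 (dendritic) on 3 each, and EPCAM (epithelial) on 2. Of 4 natural killer markers NCAM1 and NKG7 were on all 36, and of 3 B-cell markers with a probe CD79A was on 31, CD79B on 34 and MS4A1 on 5. What part other cells had in any result was not tested.

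Each member had 1 probe, so no second probe could be set beside it. EBI3 was above background on 33 of 36 arrays, with raw intensities between 117.6 and 16517.5. IL23A was above background on 34 arrays, between 114.1 and 6433.4. IL12B passed on 9 arrays, between 78.1 and 596.4, and 8 of these 9 came from SB+LPS and LPS groups, so its place among the tested genes rested on the groups in which it was high. IL12A passed on 4 arrays scattered over 4 groups, and on 0 at the stricter detection p of 0.01. The IL27 probe was above background on 0 of 36 arrays (62.4 to 111.2), failed the filter and was not tested.

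**Figure D1:**
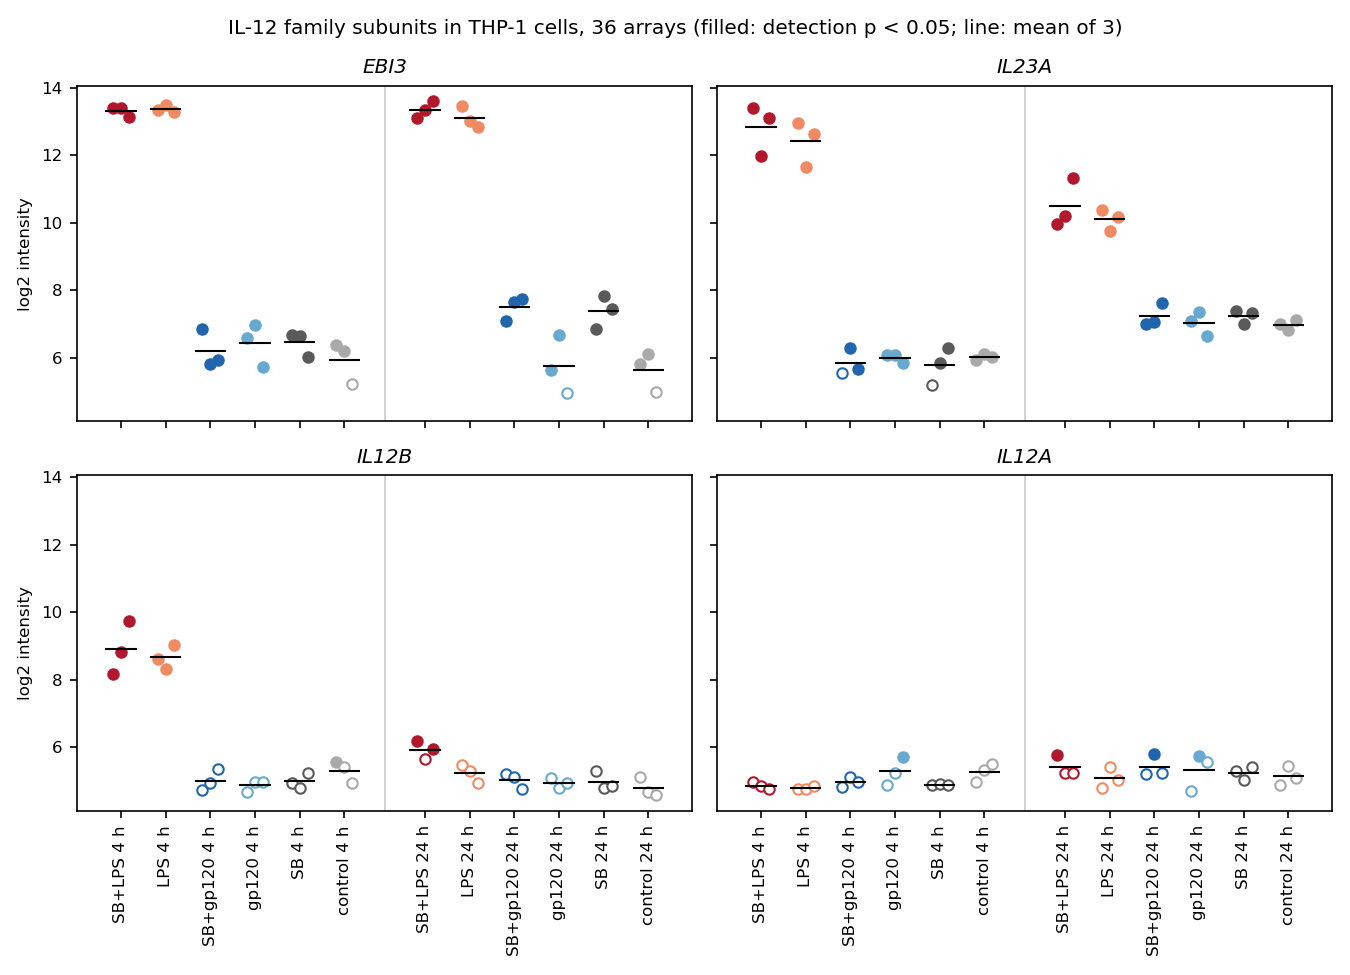
Normalised log2 intensity (y axis) of EBI3, IL23A, IL12B and IL12A on each of the 36 arrays by group (x axis), filled where the detection p was under 0.05, with a line at the mean of 3 replicates. EBI3 stood near 13 in all 4 groups that received LPS, IL23A with LPS stood lower at 24 h than at 4 h, IL12B with LPS stood apart at 4 h, and IL12A stayed between 4.71 and 5.81 throughout.

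EBI3, the beta chain of IL-27, rose with LPS at both times. On the normalised log2 scale the 3 arrays of LPS at 4 h read 13.35, 13.49 and 13.27, against 6.40, 6.20 and 5.23 in control at 4 h. The raw intensities were 4858.2, 10450.7 and 9358 in LPS and 197.5, 181.5 and 134.9 in control, the last of these not above background. All 3 LPS arrays were far above all 3 control arrays. EBI3 rose by 7.43 with LPS (SE 0.38, 95% interval 6.66 to 8.20, limma adjusted p = 3.41e-15), a 172-fold difference, and ranked 2 among all genes by size. The fold depends on the processing, and the lowest log2 difference over the alternatives was 6.04. Of all tested genes, 26.7% were called here, 10.5% higher and 16.2% lower with LPS.

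At 24 h the EBI3 arrays read 13.46, 13.01 and 12.84 in LPS, against 5.81, 6.12 and 5.00 in control. EBI3 rose by 7.46 (interval 6.69 to 8.23, adjusted p = 1.05e-14), a 176-fold difference and rank 3, in a comparison where 11.9% of genes were called, 6.6% higher and 5.28% lower. The third control array was not above background, and raw means were 7571 in LPS and 151 in control. The fold therefore rests on a control near background, and the lowest log2 difference over the alternatives was 5.91. The LPS response of EBI3 at 24 h minus that at 4 h was 0.04 (adjusted p = 0.978), and −1.64 with slide as a block (adjusted p = 0.369). LPS at 24 h minus LPS at 4 h was −0.26 (adjusted p = 0.639). Within slides, LPS minus SB for EBI3 was 6.91 at 4 h (adjusted p = 1.90e-14) and 5.71 at 24 h (adjusted p = 2.94e-12), where 22.7% and 9.79% of genes were called. These groups differ in SB as well as LPS, and EBI3 at 24 h averaged 7.39 in SB and 5.64 in control. LPS and control at 24 h also shared a slide. Fewer responding cells and less RNA per cell cannot be told apart in RNA of bulk samples.

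IL23A, the alpha chain particular to IL-23, rose with LPS at both times, and less at 24 h than at 4 h. Its arrays read 12.94, 11.66 and 12.63 in LPS at 4 h, against 5.94, 6.13 and 6.03 in control, a rise of 6.38 (SE 0.35, interval 5.67 to 7.09, adjusted p = 2.08e-14), 83.1-fold and rank 7. At 24 h they read 10.39, 9.75 and 10.18 in LPS, against 7.00, 6.84 and 7.11 in control. The groups were separate at each time, and the LPS arrays of 24 h all lay below those of 4 h. The rise at 24 h was 3.12 (interval 2.41 to 3.83, adjusted p = 7.46e-08), 8.70-fold and rank 86.

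The test of the IL23A response at 24 h minus that at 4 h gave −3.26 (interval −4.26 to −2.25, adjusted p = 3.45e-05), and 12.2% of genes were called in it. With slide as a block it was −3.63 (adjusted p = 0.00605). LPS at 24 h itself lay below LPS at 4 h by a difference of −2.31 (adjusted p = 7.07e-06), where 31.1% of genes were called and 13.3% were lower at 24 h, and these groups lay on slides 1 and 3. Control arrays averaged 6.98 ± 0.14 for 24 h and 6.03 ± 0.09 for 4 h (SD, n = 3 each), on different slides.

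IL12B, the beta chain that IL-12 and IL-23 share, was above background in LPS cells at 4 h and not at 24 h. The 3 arrays read 8.62, 8.33 and 9.04 in LPS at 4 h (raw 223.8, 360.5 and 515.1), against 5.58, 5.42 and 4.94 in control (raw 147.5, 141.5 and 119.8), where 1 array was above background. IL12B rose by 3.35 at 4 h (SE 0.27, interval 2.80 to 3.89, adjusted p = 8.71e-11), a size that rests on a control group mostly at background. Against SB on the same slide, where no array detected it, the rise was 3.67 (adjusted p = 1.35e-11), at least 8.35-fold. Such lower limits set the bright group against the lowest signal detected on each dim array, or the probe's own signal where that was higher. They were computed with the main normalisation alone, here and for every gene below, and are no minimum over the alternatives. Over the alternatives run, the lowest log2 difference of LPS from SB was 2.09.

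At 24 h no LPS array and no control array detected IL12B. LPS read 5.47, 5.31 and 4.96 and its difference from control was 0.45 (adjusted p = 0.338). LPS at 24 h lay below LPS at 4 h by at least 8.06-fold (log2 difference −3.42, adjusted p = 7.86e-11). The smallest log2 difference over the alternatives was −1.93. The IL12B response at 24 h minus that at 4 h was −2.90 (interval −3.67 to −2.13, adjusted p = 4.86e-06), and −2.41 with slide as a block (adjusted p = 0.0217).

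IL12A, the alpha chain of IL-12, was at or near background in every group. Its 36 values ran between 4.71 and 5.81, and its group means between 4.81 (LPS at 4 h) and 5.42 (SB+gp120 at 24 h). The 4 arrays that detected it were 1 each of SB+LPS, SB+gp120 and gp120 at 24 h and of gp120 at 4 h. LPS minus control was −0.46 at 4 h (adjusted p = 0.144) and −0.05 at 24 h, and limma called IL12A in 0 of 28 comparisons (2 under an unadjusted p of 0.05). A probe at background gives no measure of how much transcript was present below its limit.

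By pairs, the transcripts of both chains were above background on all 3 arrays of a group for IL-23 alone, in SB+LPS and LPS at 4 h. In SB+LPS at 24 h both IL-23 chains were detected on 2 of 3 arrays. EBI3 was detected with neither of its partners on all 3 arrays of any group: IL27 was on 0 arrays and IL12A on at most 1 array of a group. These are transcripts, and no cytokine was measured.

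**Figure D2:**
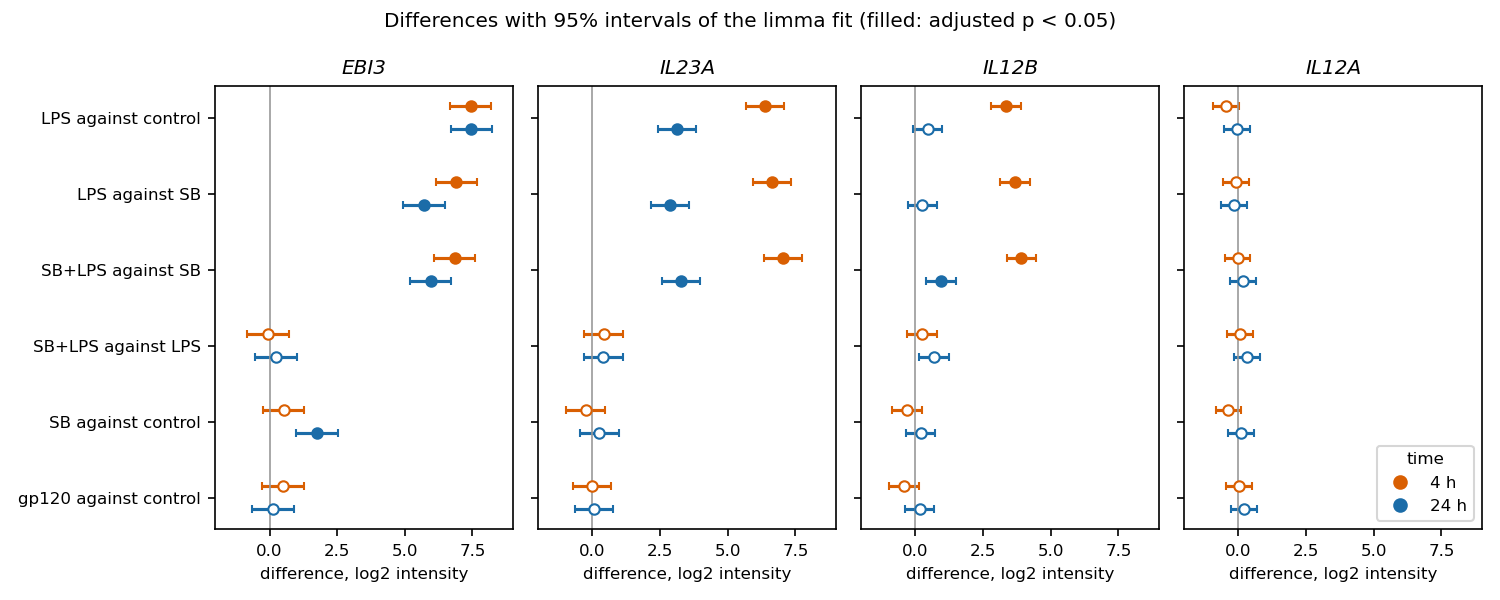
Differences in log2 intensity (x axis) with 95% intervals from limma for EBI3, IL23A, IL12B and IL12A in 6 comparisons (y axis), with 4 h above 24 h and filled points at an adjusted p under 0.05. The LPS differences of EBI3 were 7.43 at 4 h and 7.46 at 24 h, those of IL23A 6.38 and 3.12, and those of IL12B 3.35 and 0.45, while the intervals of SB+LPS against LPS held 0 in all but IL12B at 24 h.

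With SB before LPS, limma called 0 members against LPS alone at either time (0 at 4 h and 1 at 24 h under an unadjusted p of 0.05), in comparisons where 2.16% of genes were called at 4 h and 1.03% at 24 h. With the replicate number as a block, 562 genes were called at 4 h in place of 294, and still 0 members. EBI3 read 13.38, 13.40 and 13.13 in SB+LPS at 4 h, against 13.35, 13.49 and 13.27 in LPS. The ranges overlapped and the difference was −0.07 (interval −0.83 to 0.70, adjusted p = 0.972). At 24 h EBI3 read 13.11, 13.32 and 13.60 in SB+LPS, against 13.46, 13.01 and 12.84 in LPS, with a difference of 0.24 (interval −0.53 to 1.01, adjusted p = 0.959). The difference was 0.83 with equal medians and −0.51 with slide as a block, neither called. Slide as a block called 0 of all genes in this comparison.

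IL23A read 13.39, 11.97 and 13.11 in SB+LPS at 4 h, against 12.94, 11.66 and 12.63 in LPS. Each SB+LPS replicate was above the LPS replicate of the same number, by 0.45, 0.31 and 0.48, although the groups overlapped. The difference was 0.41 (interval −0.30 to 1.12, adjusted p = 0.652), and adjusted p = 0.583 with the replicate number as a block. At 24 h IL23A read 9.97, 10.21 and 11.34 in SB+LPS, against 10.39, 9.75 and 10.18 in LPS, a difference of 0.40 (interval −0.31 to 1.11, adjusted p = 0.872).

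IL12B read 8.18, 8.82 and 9.73 in SB+LPS at 4 h, against 8.62, 8.33 and 9.04 in LPS. The difference was 0.25 (interval −0.30 to 0.79, adjusted p = 0.746), and −0.04 with arrays scaled to equal medians. At 24 h it read 6.20, 5.67 and 5.95 in SB+LPS, with 2 arrays above background, against 5.47, 5.31 and 4.96 in LPS. These groups did not overlap, and the difference of 0.69 (interval 0.15 to 1.24) had an adjusted p = 0.308. They also lay on different slides at 24 h. Intervals of this width leave room for a change in either direction, except for IL12B at 24 h.

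The response to LPS in cells that had received SB was large as well. SB+LPS minus SB at 4 h was 6.84 for EBI3 (adjusted p = 3.69e-14), 7.04 for IL23A (adjusted p = 4.12e-15) and 3.92 for IL12B (at least 9.91-fold, adjusted p = 3.93e-12), all on 1 slide, where 15.6% of genes were called. At 24 h it was 5.95 for EBI3 (62.0-fold, adjusted p = 9.01e-12), rank 1 of all genes, and 3.27 for IL23A (adjusted p = 1.18e-07), where 5.23% of genes were called between slides 2 and 1. IL12B at 24 h was 0.95 (adjusted p = 0.0302), at least 1.27-fold, and lost its call without either of SB+LPS replicates 1 and 3 or SB replicates 2 and 3 (0.82 to 0.94, adjusted p 0.0860 to 0.158) and with slide as a block (1.51, adjusted p = 0.430), equal medians (1.11, adjusted p = 0.0891), no background correction (0.49, adjusted p = 0.204) and the authors' values (0.48, adjusted p = 0.202). SB+LPS minus SB+gp120 gave 7.10 for EBI3, 6.98 for IL23A and 3.89 for IL12B (at least 9.47-fold) at 4 h and 5.84, 3.27 and 0.90 (at least 1.24-fold) at 24 h, within slides, where 12.1% and 4.58% of genes were called; the IL12B call at 24 h (adjusted p = 0.0474) was lost when any 1 of the 6 arrays was left out.

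The difference of the LPS response with SB from that without it was tested directly. It was −0.58 for EBI3 (adjusted p = 0.899), 0.66 for IL23A (adjusted p = 0.851) and 0.57 for IL12B at 4 h, and −1.51 for EBI3 (adjusted p = 0.490), 0.14 for IL23A and 0.50 for IL12B at 24 h. Limma called 0 members (0 at 4 h and 1 at 24 h under an unadjusted p of 0.05), and 0.14% and 0.133% of genes. The value for EBI3 at 24 h contains a higher level in cells with SB alone, described next.

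SB without a stimulus went with a higher EBI3 level at 24 h. EBI3 read 6.87, 7.85 and 7.45 in SB at 24 h, against 5.81, 6.12 and 5.00 in control, with no overlap and the last control array not above background. It rose by 1.75 (interval 0.98 to 2.52, adjusted p = 0.0128), 3.36-fold and rank 34, where 0.913% of genes were called and 0.685% were higher. Both groups were on slide 1. The call was lost without control replicate 3 (1.43, adjusted p = 0.131), SB replicate 2 (1.52, adjusted p = 0.130) or SB replicate 3 (1.72, adjusted p = 0.0603).

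With gp120 present, EBI3 at 24 h read 7.11, 7.65 and 7.76 in SB+gp120, against 5.65, 6.69 and 4.95 in gp120. It rose by 1.74 (3.34-fold, adjusted p = 0.00765), where 4.64% of genes were called, between different slides. With slide as a block, which called 0 of all genes in this comparison, it was 0.99 and not called. The call was also lost with only the groups compared in the fit (1.74, adjusted p = 0.121) and without SB+gp120 replicate 3 (1.62, adjusted p = 0.0528). At 4 h EBI3 read 6.69, 6.66 and 6.02 in SB, against 6.40, 6.20 and 5.23 in control, a difference of 0.52 (adjusted p = 0.999) where 0.14% of genes were called (19, or 32 with the replicate number as a block). The other members were not called for SB against control at either time.

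For gp120 against control, limma called 0 members and 0 of all 13582 genes (0% at each time), with 261 genes at 4 h and 405 at 24 h under an unadjusted p of 0.05. EBI3 read 6.59, 6.97 and 5.75 in gp120 at 4 h, against 6.40, 6.20 and 5.23 in control, a difference of 0.49 (interval −0.27 to 1.26). At 24 h the difference was 0.12 (interval −0.64 to 0.89). IL23A differed by −0.03 at 4 h and 0.06 at 24 h, and IL12B, at background in gp120 cells, by −0.43 and 0.15. The arrays of gp120 and control overlapped for EBI3 and IL23A at both times.

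In order of level, the 4 groups with LPS led for EBI3 with means of 13.37 ± 0.11 (LPS at 4 h), 13.34 ± 0.24 (SB+LPS at 24 h), 13.30 ± 0.15 (SB+LPS at 4 h) and 13.10 ± 0.32 (LPS at 24 h; SD, n = 3 each). Neighbours among these overlapped, and a gap of more than 5 log2 units followed. SB+gp120 and SB at 24 h came next at 7.50 ± 0.35 and 7.39 ± 0.49. The other 6 groups lay between 6.46 ± 0.38 and 5.64 ± 0.58, each overlapping the next.

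IL23A fell into 4 levels. SB+LPS and LPS at 4 h stood at 12.82 ± 0.75 and 12.41 ± 0.67, SB+LPS and LPS at 24 h at 10.51 ± 0.73 and 10.10 ± 0.33. The 4 groups of 24 h without LPS stood between 7.24 ± 0.22 and 6.98 ± 0.14, and the 4 of 4 h without LPS between 6.03 ± 0.09 and 5.78 ± 0.56. For IL12B, SB+LPS and LPS at 4 h stood at 8.91 ± 0.78 and 8.66 ± 0.36, SB+LPS at 24 h at 5.94 ± 0.27, and the other 9 groups at 5.31 ± 0.34 or less.

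SB+LPS repeated the order in time. IL23A in SB+LPS at 24 h minus 4 h was −2.31 (adjusted p = 1.07e-05) and IL12B −2.97 (adjusted p = 1.75e-09), where 26.9% of genes were called and 11.2% were lower. These groups lay on different slides, and with slide as a block neither was called (−2.69, adjusted p = 0.176, and −2.48, adjusted p = 0.101). EBI3 differed by 0.04 (adjusted p = 0.950), and by 1.07 with arrays scaled to equal medians (adjusted p = 0.0236), a scaling that moved the median of all genes by 0.96 in this comparison.

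**Figure D3:**
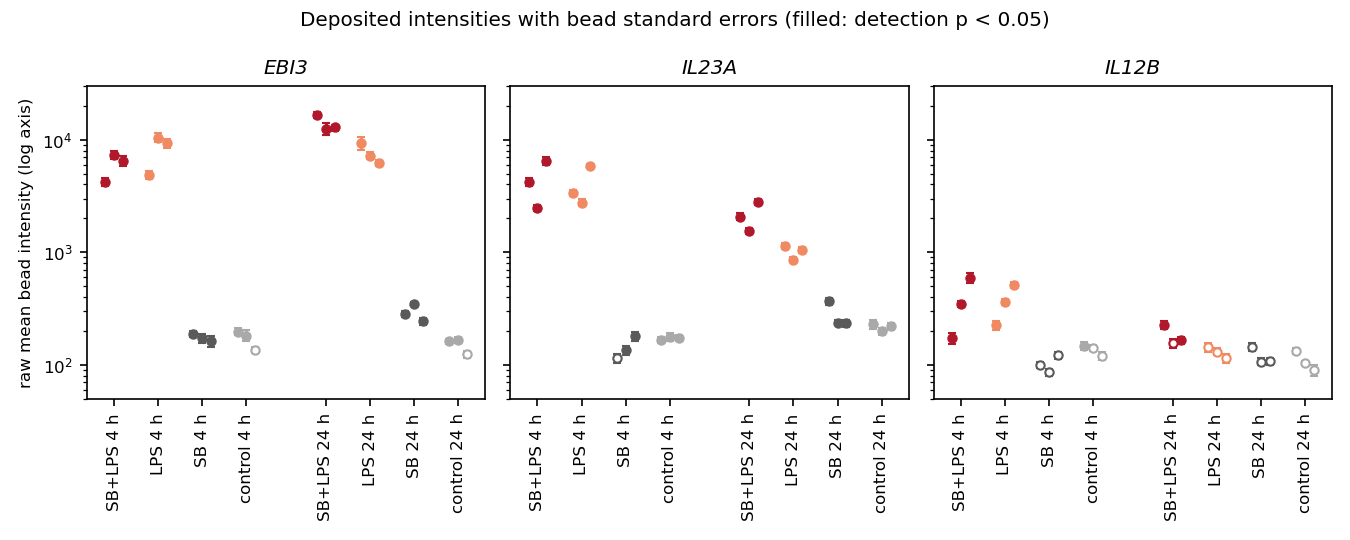
Deposited mean bead intensity before normalisation (y axis, log scale) with bead standard errors for EBI3, IL23A and IL12B in SB+LPS, LPS, SB and control (x axis), filled where the detection p was under 0.05. EBI3 in LPS at 4 h spans 4858.2 to 10450.7 and control at 4 h 134.9 to 197.5.

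The standard error over the beads of a probe was, at the median, smaller than the SD between replicates. The median bead standard error, taken from raw signal, was 0.105 log2 units for EBI3, 0.10 for IL23A and 0.11 for IL12B. The median SD within a group, on the normalised scale, was 0.44, 0.35 and 0.27. A standard error over beads is not the spread between single beads, which was not computed. In the plot of raw intensity the bars were small beside the scatter of the 3 arrays in some groups and not in others. For IL23A in LPS at 4 h the raw SD was 1622, with bead standard errors between 185 and 275. For IL23A in control at 4 h the raw SD was 5.75, with bead standard errors between 10.6 and 13.1. EBI3 stood higher in raw signal in SB+LPS at 24 h (16517.5, 12446.4 and 12838.1) than in LPS at 24 h (9278.5, 7201.9 and 6233), on another slide. These groups overlapped after quantile normalisation but not with equal medians, at 13.85, 13.59 and 13.68 in SB+LPS and 13.18, 12.83 and 12.62 in LPS, where the difference was 0.83 (adjusted p = 0.185).

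The 9 lists of genes around the family were read beside the members. Scaling arrays to equal medians moved the median of all genes by −0.62 for LPS against control at 4 h, and the share of called genes that were higher with LPS was then 8.35%, beside 39.2% in the quantile-normalised fit. At 24 h the shift was −0.02 and the shares were 76.3% and 55.6%. The median difference over all genes was −0.09 at 4 h and −0.06 at 24 h. Each list count with LPS below stands beside 10.5% of all genes called higher and 16.2% lower at 4 h, and 6.6% and 5.28% at 24 h, and a count near these shares is no result about its list.

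**Figure D4:**
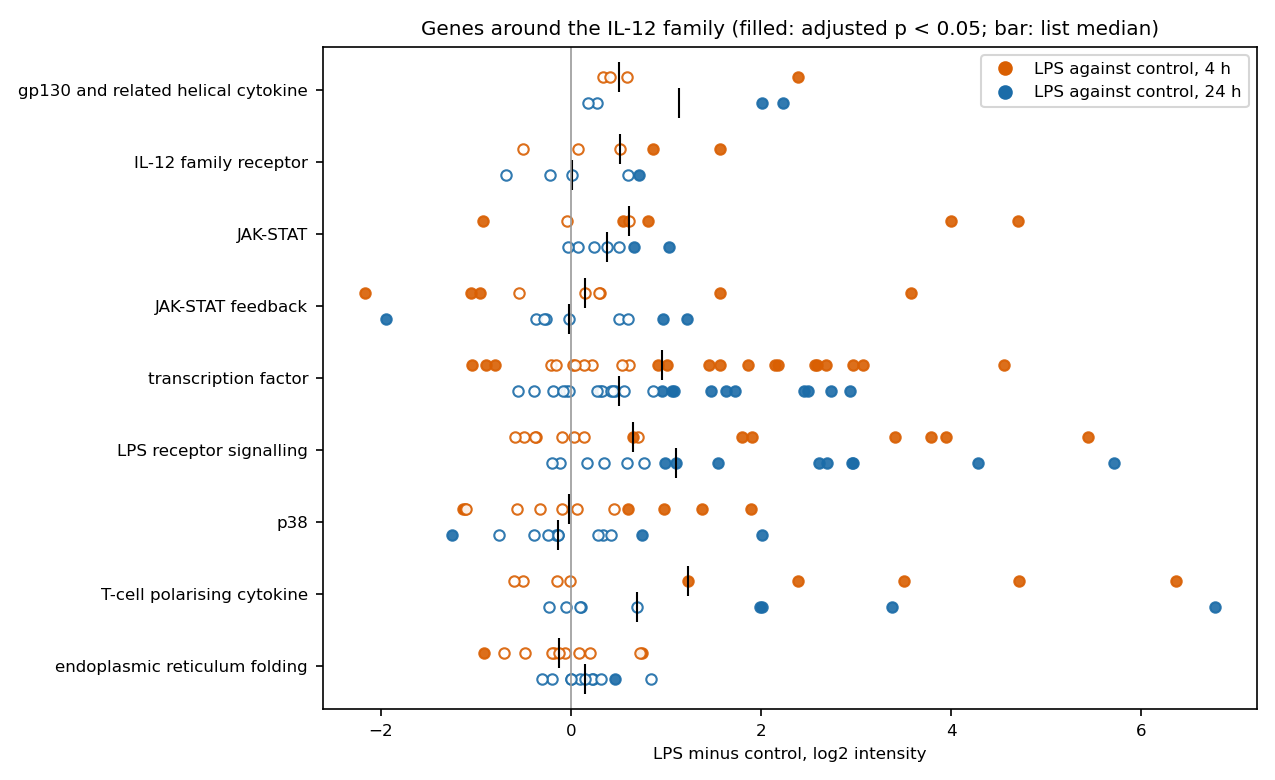
LPS minus control in log2 intensity (x axis) for each tested gene of the 9 lists (y axis) at 4 h and 24 h, filled at a limma adjusted p under 0.05, with a bar at each list's median. At 4 h IL1B, IRAK2, IL1A, STAT4 and NFKB2 stand at or above 4.56 and at 24 h IL1B and CD14 do, and SOCS2 lies lowest at −2.16 and −1.94.

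Among 5 receptor chains of the family, 2 rose and 0 fell with LPS at 4 h (median 0.52, or −0.37 with equal medians) and 1 rose at 24 h (median 0.01). IL27RA, the receptor chain particular to IL-27, averaged 9.70 ± 0.21 in LPS at 4 h and 8.14 ± 0.39 in control (SD, n = 3 each), a rise of 1.57 (adjusted p = 1.08e-05) that was not called with equal medians (0.69, adjusted p = 0.0687). IL12RB2, a chain of the IL-12 receptor, rose by 0.86 (adjusted p = 0.0428) and was not called under 8 of 18 alternatives. IL6ST, the gp130 chain that IL-27 and IL-6 share, rose by 0.72 at 24 h (adjusted p = 0.0452, not called under 7 of 18). IL12RB1, shared by the IL-12 and IL-23 receptors, differed by 0.07 at 4 h and −0.68 at 24 h (adjusted p = 0.0640). IL23R was not analysed here.

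Of 7 tested JAK and STAT genes, 4 rose and 1 fell at 4 h (median 0.61, or −0.28 with equal medians), and 2 rose at 24 h. STAT4, which carries IL-12 and IL-23 signals in lymphocytes, averaged 11.21 ± 0.50 in LPS at 4 h and 6.51 ± 0.11 in control, a rise of 4.71 (adjusted p = 4.29e-12). At 24 h it rose by 1.03 (adjusted p = 0.0338), a call lost under 8 of 18 alternatives. STAT5A rose by 4.00 at 4 h (adjusted p = 2.29e-15). JAK2 fell by 0.92 at 4 h and lost its call under 6 of 18 alternatives.

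Of 9 feedback genes that restrain JAK-STAT signals, 2 rose and 3 fell at 4 h, and 2 rose and 1 fell at 24 h. SOCS3 averaged 9.08 ± 0.78 in LPS at 4 h and 5.50 ± 0.16 in control, a rise of 3.58. At 24 h it rose by at least 1.90-fold, a call lost under 5 of 18 alternatives, among them the authors' values. The lowest log2 difference of SOCS3 over these alternatives was 0.55. SOCS1 rose by 1.57 at 4 h and was not called with slide as a block. SOCS2 fell by 2.16 at 4 h, fell by 1.94 at 24 h, and kept its call under all 18 alternatives at both times.

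Of 24 transcription factors of the myeloid LPS response, 13 rose and 3 fell at 4 h (median 0.96, or 0.20 with equal medians), and 11 rose and 0 fell at 24 h. NFKB2, a subunit of NF-kB, averaged 11.46 ± 0.20 in LPS at 4 h and 6.91 ± 0.49 in control, a rise of 4.56. JUN, a subunit of AP-1, rose by 3.08 at 4 h and 2.94 at 24 h, and the repressor BCL6 by 2.96 and 2.73. RELB, another NF-kB subunit, rose by 2.49 at 24 h. With SB alone at 24 h, 3 of the 24 rose (BCL6 by 1.24, RELB by 0.96 and NFIL3 by 0.69), 1 fell (IRF5 by 0.95) and 20 were not called. Of all genes 0.913% were called there, 0.685% higher. These factors were named after their values were seen, and their calls were not tried under the alternatives. A link to the higher EBI3 level was not tested.

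Of 15 tested genes of LPS receptor signalling, 7 rose and 0 fell at 4 h (median 0.65, or −0.22 with equal medians, where 2 fell), and 9 rose and 0 fell at 24 h. IRAK2, a kinase of the MyD88 complex, averaged 12.97 ± 0.54 in LPS at 4 h and 7.53 ± 0.74 in control, a rise of 5.44. MAP3K8 rose by 3.95 and the NF-kB inhibitor TNFAIP3 by 3.78. At 24 h CD14, a co-receptor for LPS, rose by 5.71, LY96, which binds LPS with TLR4, by at least 15.7-fold, and NFKBIZ by 2.97. The LY96 limit holds for the main normalisation alone, and its lowest log2 difference over the alternatives was 2.70. In the p38 list 4 of 12 rose and 2 fell at 4 h (1 and 4 with equal medians, and 4 falls with the replicate block), among them MAP2K3, a kinase that activates p38, with 1.89, and at 24 h the phosphatase DUSP1 rose by 2.01. MAPK14 was not analysed here.

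Of 9 other T-cell polarising cytokines, 5 rose and 0 fell at 4 h (median 1.23; 2 fell with the replicate block or equal medians) and 4 rose at 24 h (median 0.69). IL1B rose by 6.36 at 4 h and 6.77 at 24 h, TNF by 3.50 and 3.38, and IL1A at 4 h by at least 15.1-fold. IL6 averaged 7.53 ± 1.01 in LPS at 4 h and 5.14 ± 0.32 in control, at least 3.95-fold, a call lost with slide as a block, and rose by at least 2.77-fold at 24 h. Over the alternatives the lowest log2 differences were 2.99 for IL1A at 4 h, and 0.19 at 4 h and 0.96 at 24 h for IL6. IL10 differed by −0.01 at 4 h and −0.05 at 24 h. Of 4 other cytokines of the gp130 group, IL6 included, 1 rose at 4 h and 2 at 24 h, with OSM at 24 h by at least 4.02-fold. The lowest log2 difference of OSM over the alternatives was 1.13.

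SB before LPS, in a comparison where 2.16% of all genes were called at 4 h and 1.03% at 24 h, gave the following calls among the named list genes. IL6 at 4 h averaged 6.03 ± 0.57 in SB+LPS and 7.53 ± 1.01 in LPS, and fell by 1.50 (adjusted p = 0.0244). IL27RA rose by 0.97 (adjusted p = 0.0273), with 10.67 ± 0.52 in SB+LPS and 9.70 ± 0.21 in LPS, IRF3 rose by 0.90, ELAVL1 by 1.00 and ERO1A by 0.67, and PIAS1 fell by 0.83 and CEBPD by 0.51. At 24 h IL11 was called at −0.90 with 1 of 6 arrays above background. None of these was called with equal medians, where 6.90% of called genes were higher at 4 h, beside 46.6%. The differences there were nearer 0 for IL6 (−1.19), IL27RA (0.66), IRF3 (0.55), ELAVL1 (0.42) and ERO1A (0.29), further from 0 for PIAS1 (−1.15) and CEBPD (−0.82), and −0.89 for IL11. The fit of only the groups compared called 0 of all genes at 4 h, so the loss of every call there says nothing of these genes. Without the 2 dimmest arrays all of those at 4 h except IRF3 were lost. STAT4 differed by −1.11 at 4 h (adjusted p = 0.0664).

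Endoplasmic reticulum folding genes, which serve the assembly of secreted chains, had 1 rise and 1 fall of 11 at 4 h (median −0.13; 0 and 7 with equal medians, and 2 falls with the replicate block) and 1 rise at 24 h, counts near the shares of all genes. CALR rose by 0.75 at 4 h and ERO1A fell by 0.91. CALR was −0.14 with equal medians, and ERO1A was 0.28 with slide as a block.

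The genes whose 12 group means followed each member most closely were named by Pearson's r among 1238 genes that spanned at least 2 log2 units, a description over 12 points that share the LPS groups. For EBI3 these were IER3 (r = 0.995), CXCL8 (0.992), IL4I1 (0.988), PARM1 (0.988) and CCL20 (0.983). For IL23A they were DRAM1 (0.987), MAML2 (0.986), CCL4L1 (0.983), TICAM1 (0.981) and IRAK2 (0.981). The CCL4L1 probe may also read its paralog. For IL12B they were ZC3H12C (0.993), ADRA1B (0.990), TNFRSF4 (0.990), SPRR2D (0.989) and UPB1 (0.988).

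Since these genes were picked for likeness over the same 12 groups, their LPS differences follow those of the member by construction and are given as values alone. Nearest EBI3, LPS minus control at 4 h and 24 h was 5.36 and 5.34 for IER3, 7.05 and 6.44 for CXCL8, 4.17 and 5.21 for IL4I1, 4.09 and 4.42 for PARM1 and 7.11 and 6.02 for CCL20. For the gene nearest IL23A, DRAM1, it was 3.54 and 1.45. For the gene nearest IL12B, ZC3H12C, it was 2.84 and 0.59. For IL12A, whose own means span 0.61, the highest r was 0.903 with CCDC24. Between members r was 0.942 for EBI3 and IL23A, 0.872 for IL23A and IL12B and 0.738 for EBI3 and IL12B.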

How the data were processed

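RNA of 36 THP-1 samples was read on bead arrays. The authors deposited, per the file headers, a mean bead intensity, a detection p-value, a bead count and a bead standard error (a signal in intensity units) for each of 47222 probes, and a value table that the authors deposited on a log2 scale, which lay within 0.098 of the log2 of quantile-normalised raw intensity (median 0.0115). The submitters name GeneSpring GX; its settings were not given in the sources used here. The raw values then went through neqc (limma 3.58.1, R 4.3.3), which subtracts a background estimated from the detection p-values, adds an offset of 16, equalises quantiles and takes log2. Probes with a detection p under 0.05 on 3 or more arrays were kept (26473), and each gene took its brightest probe. Symbols came from the platform annotation, updated by gene ID (30112 probes with 1 symbol, 8 with several, 17102 with none). A single limma fit over all 36 arrays gave every group its own mean, and 28 contrasts (22 between groups, 6 interactions) were adjusted by Benjamini-Hochberg over 13582 genes, two-sided. An exact permutation test of 3 against 3 cannot give a p under 0.1. The number of arrays limits the precision. The test was checked on simulated data. Members and lists were chosen with earlier results of these data known. For each member and each list, genes were named by a fixed rule: the 5 highest correlations of group means, and per list up to 3 calls in LPS against control and 2 in SB+LPS against LPS at each time, with the largest differences, besides IL27, IL6, IL10, IL1B and TNF. IL12RB1, STAT4 in SB+LPS against LPS, and the factors called with SB alone were named after their values were seen.

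Arrays of the same replicate number deviated together (every correlation over 0.1) in 10 of 10 comparisons at 4 h (lowest 0.122), 4 of 10 at 24 h and 0 of 2 across times, so the number was tried as a block. The submitters call the replicates biological and do not say that they were separate cultures, so p-values measure the spread between these samples. Alternatives were equal medians, the authors' values, no background correction, a detection p under 0.01 or no detection filter, the mean of a gene's probes, replicate blocks, only the groups compared, trend and robust variances, slide as a block, leaving out each array, and, added after seeing the data, leaving out the 2 dimmest arrays. No group was spread over several slides, so slide as a block needed a model without the interaction of stimulus, SB and time together. That model holds the LPS by SB difference equal at both times, and all values with slide as a block rest on this assumption. Promoters were RefSeq sequences, and 4 of 4 members matched.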

Additional observations from a re-analysis of the deposited data

Results flagged for a closer look

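The LPS response differed between the times for IL23A and IL12B by the test of the difference itself. For IL23A, the response at 24 h minus that at 4 h was −3.26 log2 units (adjusted p = 3.45e-05). For IL12B it was −2.90 (adjusted p = 4.86e-06), with no LPS or control array of 24 h above background. The place of IL12B among the tested genes also rested on the groups in which it was high. Both differences kept direction and call under the 12 alternatives that leave no single array out. Values were −2.66 or lower for IL23A and −1.53 or lower for IL12B. Slide as a block was among these alternatives, in a model without the interaction of stimulus, SB and time together.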

How the results depend on the processing

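Over 112 member results, 2132 alternative values were computed: 1988 kept direction and side of the threshold, 27 lost the call, 1 gained it, 116 moved and 0 reversed. LPS against control kept its calls for EBI3 and IL23A at both times and for IL12B at 4 h under all alternatives run. Sizes moved at both times. At 4 h with slide as a block they were 9.10 for EBI3, 6.75 for IL23A and 2.86 for IL12B. The lowest values over the alternatives at 4 h were 6.04, 5.04 and 1.91. At 24 h the lowest were 5.91 for EBI3 and 2.37 for IL23A, so the fold differences depend on the processing. The replicate block changed no member call (EBI3 in SB against control at 24 h had adjusted p = 0.00249 with it). Differences that were not called crossed 0 under some settings. With slide as a block, EBI3 in SB+LPS against LPS at 24 h was −0.51, its LPS response by time −1.64 and IL23A in SB against control at 4 h 0.12. EBI3 by time was −0.12 without background correction and −0.13 in the authors' values, and IL12B in SB+LPS against LPS at 4 h was −0.042 with equal medians. Among list genes at 4 h, ERO1A in LPS against control was 0.28 with slide as a block and CALR −0.14 with equal medians. Leaving out 1 array at a time gave, for EBI3, −0.11 to 0.021 in SB+LPS against LPS at 4 h, −0.34 to 0.53 in gp120 against control at 24 h, 1.43 to 2.01 in SB against control at 24 h and −0.29 to 0.39 for LPS by time. For IL23A it gave −0.074 to 0.056 and −0.11 to 0.25 in gp120 against control at 4 h and 24 h, −0.51 to 0.041 in SB against control at 4 h, −0.013 to 0.67 in SB+LPS against LPS at 24 h and −0.27 to 0.41 for LPS by SB at 24 h, and for IL12B −0.16 to 0.61 in SB+LPS against LPS at 4 h. Counts of called genes moved with slide as a block, equal medians, a fit of only the groups compared and the replicate block within each time: 3628 in LPS against control at 4 h ran between 425 and 6482, 1614 at 24 h between 692 and 2695, 294 and 140 in SB+LPS against LPS between 0 and 953 and between 0 and 438, and 124 in SB against control at 24 h between 88 and 478. The highest of these counts came from the replicate block within each time (953, 438, 478 and 2695) or, at 4 h with LPS, from equal medians (6482). The causes of these shifts were not tested. No other probe of a member could be tried, since each has 1, and IL12A has no value at a detection p under 0.01.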
